A study of Homo sapiens with 4 samples.

Results

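NFAT5 and 4 genes that bring small organic osmolytes into the cell or make them were followed across adherent cells and spheroids of 2 colorectal cancer lines. The 5 genes were NFAT5, SLC5A3, SLC6A6, SLC6A12 and AKR1B1, taken by name from the 58735 genes of the deposited expression table, and MRPS6 was read beside them because SLC5A3 lies inside its coordinates. They were chosen by their FPKM in these same 4 libraries, so every level and difference below is a description, and no p-value was computed. FPKM counts fragments relative to gene length and to the size of the library, and it allows levels of genes of different length to be set side by side.

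RNA-seq was carried out on HCT116 and LOVO, each as 1 library of adherent cells and 1 of spheroids, with the genotype of all 4 given as WT. The adherent cells were untreated and grew in RPMI-1640 with fetal bovine serum. The labels mark both spheroid samples with 1 mg/ml and name no agent, whereas the study describes oxaliplatin at 1 μg/ml, and its methods ultralow attachment dishes and a serum-free DMEM/F12 medium with growth factors. Oxaliplatin is a platinum drug that crosslinks DNA. Growth form, medium and drug changed together and cannot be told apart, and without replicates the spread between cultures is unknown. In bulk RNA, fewer cells of a type and less RNA per cell also cannot be told apart.

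The libraries held 15483569 to 20429147 reads on genes, and the 10 genes with the most reads took 4.92% to 11.0% of them. Differences were taken as log2(FPKM + 1), which compresses changes where values are low. The filter was a mean FPKM over the 4 libraries of 1 or more, which 14429 genes and all 5 members passed, SLC6A12 only through its level in LOVO spheroids (0.891 FPKM over the other 3 libraries). Where a fold is given, it is the ratio of the FPKM values themselves, and its 95% interval, exact and from the recovered reads, covers counting error only. The epithelial markers differed between the lines. EPCAM, a surface protein of epithelial cells, stood at 85.6 and 79.3 FPKM in HCT116 adherent cells and spheroids but at 0.930 and 1.50 in the LOVO pair. CDH1, the epithelial cadherin, stood at 31.1 in both HCT116 libraries and at 0.117 and 0.00805 in LOVO, and CDX2, an intestinal transcription factor, was listed at 0 in both LOVO libraries. The keratins KRT8 and KRT18 were present in all 4. Another keratin, KRT19, stood at 808 and 543 in the HCT116 pair and at 14.9 and 4.85 in the LOVO pair. KRT20 stood at 0.930 and 7.45 in HCT116 and at 0.0302 and 0.0538 in LOVO. VIL1, the last epithelial marker read, did not exceed 0.0946 in any library. LOVO is therefore used here as the name on the label. Of 6 markers of leukocytes, fibroblasts and endothelium, summed at 5.77 to 16.2 FPKM, only COL1A1 and PECAM1 passed the filter. COL1A1, a collagen of fibroblasts, stood at 5.51 and 15.5 FPKM in the HCT116 pair, a difference of 1.34, and at 9.89 and 6.10 in the LOVO pair. PECAM1, an endothelial adhesion protein, stood at 0.0759 and 0.391 in the HCT116 pair and at 0.0359 and 6.35 in the LOVO pair. PECAM1 passed the filter only through LOVO spheroids. PTPRC, the leukocyte marker CD45, did not exceed 0.0107 in any library. The other collagen marker, COL1A2, did not exceed 0.00534, and CD3E, another leukocyte marker, did not exceed 0.0350. VWF, the other endothelial marker, stood at 0.170 and 0.332 in the HCT116 pair and at 0.0376 and 0.0670 in the LOVO pair. COL1A2 and VWF thus did not follow COL1A1 and PECAM1 to their levels. The part of these differences in the results below was not tested.

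Cells in a hypertonic surrounding lose water, and animal cells restore their volume by gathering organic osmolytes, which do not disturb proteins as salts do. NFAT5, also called TonEBP, is the transcription factor best known for switching on this programme, above all in the kidney medulla, and its targets include the transporters of myo-inositol, taurine and betaine and the enzyme that makes sorbitol. The activity of NFAT5 is set by its entry into the nucleus and by modification of the protein as well as by its messenger RNA, so its FPKM is not a reading of its activity.

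NFAT5 lies on the plus strand of chromosome 16 from 69565094 to 69704666 (GRCh38, as all coordinates here), with 12 annotated transcripts. It was measured at 12.5 FPKM in adherent HCT116 cells (4166 reads), 14.3 in HCT116 spheroids (3939 reads), 9.76 in adherent LOVO cells (2870 reads) and 7.35 in LOVO spheroids (2425 reads). The highest and lowest of the 4 libraries were the spheroids of the 2 lines, and the whole range was narrow beside those of SLC5A3, AKR1B1 and SLC6A12. The difference between spheroids and adherent cells was 0.18 in HCT116 (fold 1.15, 95% interval 1.10 to 1.20) and -0.37 in LOVO (fold 0.753, interval 0.713 to 0.795), or -0.20 in LOVO after rescaling to TPM. The messenger of the regulator itself therefore differed in opposite directions in the 2 lines, beyond counting error in both. Of its exonic bases 10.1% are shared with 2 other annotated genes, MIR1538 and AC012321.1, which were listed at 0 in every library.

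**Figure D1:**
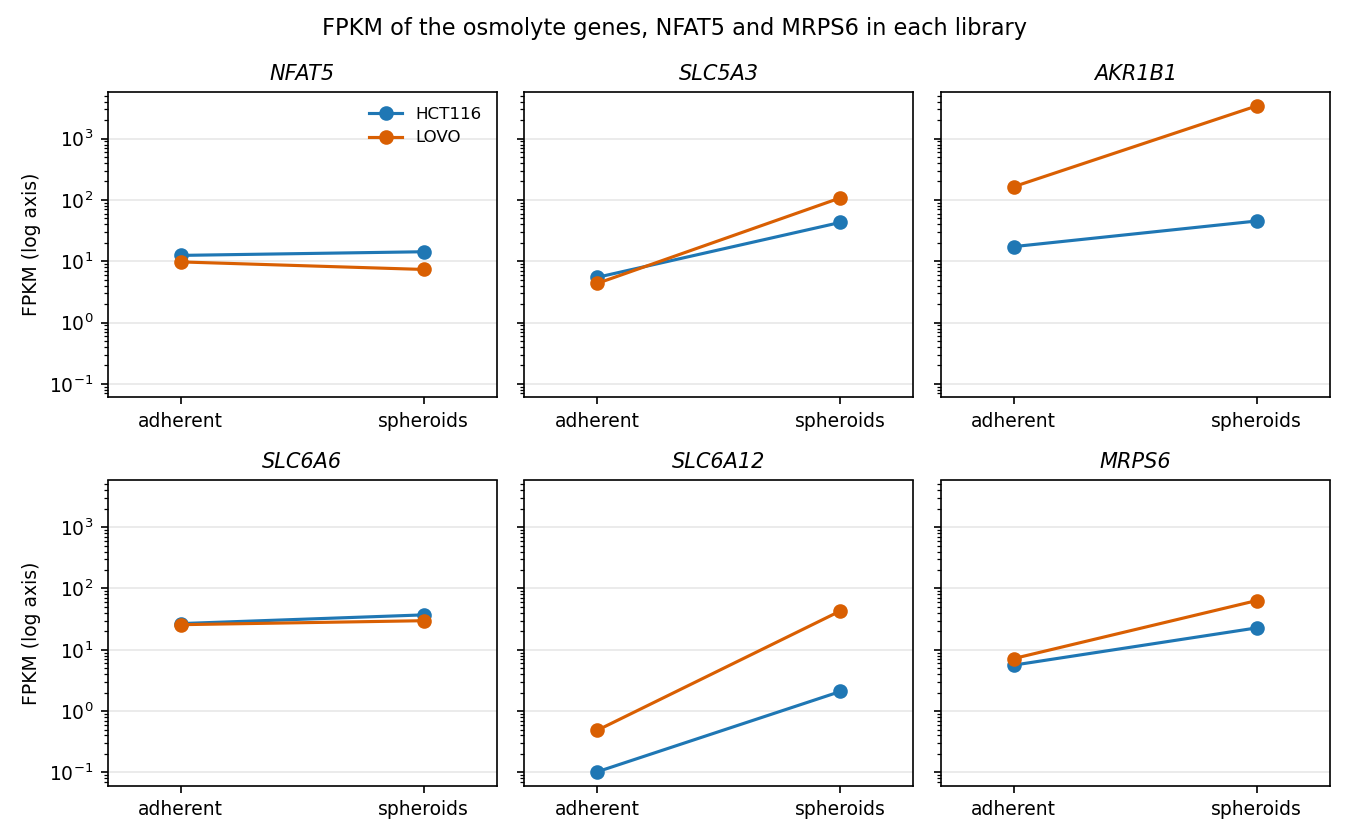
FPKM on a log axis (vertical) in adherent cells and spheroids (horizontal) for the 5 members and MRPS6, 1 panel a gene, 1 point a library, with lines joining the libraries of HCT116 (blue) and LOVO (orange). SLC5A3, AKR1B1, SLC6A12 and MRPS6 slope upward in both lines, whereas NFAT5 and SLC6A6 stay within 7.35 to 14.3 and 25.6 to 37.1 FPKM.

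SLC5A3 encodes SMIT1, the sodium-coupled transporter that takes up myo-inositol. Its row gave 5.47 FPKM in adherent HCT116 cells (1290 reads), 43.0 in HCT116 spheroids (8362 reads), 4.35 in adherent LOVO cells (904 reads) and 108 in LOVO spheroids (25172 reads). Both spheroid libraries were above both adherent libraries, and the adherent cells of the 2 lines were close to each other. The fold was 7.86 (7.42 to 8.35) in HCT116 and 24.8 (23.2 to 26.5) in LOVO, or 2.77 and 4.35 on the log2(FPKM + 1) scale. Only 4 of the 14429 genes had a larger log2 difference in HCT116, and 21 in LOVO.

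SLC5A3 lies on the plus strand of chromosome 21 from 34073570 to 34106262, within MRPS6, which runs from 34073224 to 34143034 on the same strand. MRPS6 encodes a protein of the small subunit of the mitochondrial ribosome. The only annotated SLC5A3 transcript has a first exon of 176 bases, all of it exonic in MRPS6 as well, and a second exon of 11400 bases that lies in an MRPS6 intron except for 74 and 23 bases. The genes thus share 273 exonic bases, 2.36% of SLC5A3 and 6.35% of MRPS6. RefSeq places both starts at 1 position, so the 250 bases before it are a single sequence for the 2 genes. It is shown, with that of AKR1B1 for comparison, because the rows of SLC5A3, MRPS6 and AKR1B1 were all higher in spheroids, and capitals mark the GC box GGGCGG or its reverse complement, searched on both strands.
SLC5A3 and MRPS6, chr21:34073328-34073577, plus strand: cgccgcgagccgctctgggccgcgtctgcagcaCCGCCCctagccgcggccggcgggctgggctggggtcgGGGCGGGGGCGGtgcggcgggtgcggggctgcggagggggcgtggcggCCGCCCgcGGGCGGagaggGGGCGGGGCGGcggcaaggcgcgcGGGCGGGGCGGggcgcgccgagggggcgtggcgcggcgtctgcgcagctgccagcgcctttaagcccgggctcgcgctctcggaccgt
AKR1B1, chr7:134459101-134459350, minus strand: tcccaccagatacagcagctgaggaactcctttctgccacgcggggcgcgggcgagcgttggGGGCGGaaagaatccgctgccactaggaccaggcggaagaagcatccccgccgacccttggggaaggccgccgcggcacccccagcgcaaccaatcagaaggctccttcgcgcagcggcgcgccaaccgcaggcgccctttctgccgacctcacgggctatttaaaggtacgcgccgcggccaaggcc
The AKR1B1 window is the first of 2 that RefSeq gives. The SLC5A3 and MRPS6 window (RefSeq, GRCh38.p14) held 7 GC boxes on the strand shown and 2 on the other, counting overlapping matches, and the AKR1B1 window held 1 and 0. A GC box was present in the same 250 bases of 42.6% of the 35116 RefSeq promoters. The G and C content was 84.8% before SLC5A3 and MRPS6, which 0.481% of promoters reached, against a median of 58.0%, and AKR1B1 had 68.0% in the window shown and 50.8% in the other. The core of the NFAT5 recognition site, TGGAAA on either strand, was absent from these windows up to 50 bases after the start, as was the longer tonicity-responsive enhancer consensus. They occurred in 20.7% and 4.92% of all promoters, and their absence says only that these letters are not in this window.

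The MRPS6 row gave 5.61 FPKM in adherent HCT116 cells (492 reads), 22.7 in HCT116 spheroids (1643 reads), 7.19 in adherent LOVO cells (554 reads) and 63.6 in LOVO spheroids (5499 reads). Its order over the libraries placed both spheroid libraries on top, as for SLC5A3, but its differences were smaller, with a fold of 4.05 (3.66 to 4.49) in HCT116 and 8.85 (8.11 to 9.67) in LOVO. The log2 difference of SLC5A3 exceeded that of MRPS6 by 0.92 in HCT116 and 1.37 in LOVO, and the ratio of SLC5A3 to MRPS6 FPKM went from 0.974 to 1.89 in HCT116, while in LOVO it went from 0.606 to 1.70. If reads covered SLC5A3 evenly, its transcript would have placed 30.4, 197, 21.3 and 594 reads on the shared bases, taking HCT116 before LOVO and adherent cells before spheroids. These would be 6.18%, 12.0%, 3.85% and 10.8% of the MRPS6 reads. How reads on shared bases were assigned is not given in the sources used here, so how many reads of either gene stand in the row of the other was not tested. Of the SLC5A3 bases 97.6% are exonic in no other annotated gene. The third gene with exons there, AP000317.2, had 2 or 3 reads in each library.

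SLC6A12 encodes BGT1, which takes up betaine and also the transmitter GABA. It lies on the minus strand of chromosome 12 from 190077 to 214570 and was the lowest of the members in every library but LOVO spheroids. It was measured at 0.102 FPKM in adherent HCT116 cells (11 reads), 2.09 in HCT116 spheroids (185 reads), 0.486 in adherent LOVO cells (46 reads) and 43.0 in LOVO spheroids (4563 reads). In adherent cells it ranked 23518 in HCT116 and 15463 in LOVO among all genes by FPKM, and in LOVO spheroids it ranked 871. The fold was 20.4 (11.1 to 41.6) in HCT116 and 88.4 (66.2 to 121) in LOVO, the largest of the 5 members in both lines. On the log2(FPKM + 1) scale, which compresses such low values, the differences were 1.49 and 4.89, and 86 and 8 of the 14429 genes exceeded them. Its exons share 59 bases with AC007406.4 on the opposite strand, which was at 0 reads in 3 libraries and 37 in LOVO spheroids, and no transcript of another gene held 50 of its bases in a row in the same orientation.

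SLC6A6 encodes TauT, the taurine transporter. It lies on the plus strand of chromosome 3 from 14402576 to 14489349 and was the most even of the 4 osmolyte genes, at 26.7 FPKM in adherent HCT116 cells (4495 reads), 37.1 in HCT116 spheroids (5140 reads), 25.6 in adherent LOVO cells (3796 reads) and 29.8 in LOVO spheroids (4947 reads). Spheroids were above adherent cells in both lines, by a fold of 1.39 (1.33 to 1.44) in HCT116 and 1.16 (1.11 to 1.21) in LOVO, on the log2 scale 0.46 and 0.21. The LOVO difference was 0.42 after rescaling to TPM, and the LOVO minus HCT116 difference in spheroids went from -0.31 to -0.08. In the FPKM as deposited, the 2 adherent libraries differed within counting error. The LOVO to HCT116 fold was 0.960, with an interval of 0.919 to 1.00 that on the log2 scale ran from -0.12 to 0.0035. The log2 difference of -0.06 became -0.15 with a trimmed mean, -0.13 centred on the median and -0.01 after rescaling to TPM. This reading therefore depends on the scaling. In adherent HCT116 cells SLC6A6 was the highest of the 5 genes, and in HCT116 spheroids it stood below SLC5A3 and AKR1B1. GRIP2, which shares 239 of its exonic bases on the opposite strand, was at 0.417 and 1.53 FPKM in the HCT116 pair, adherent cells first, and at 0.131 and 3.44 in the LOVO pair.

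AKR1B1 encodes aldose reductase, which reduces glucose to sorbitol and also handles other aldehydes. It lies on the minus strand of chromosome 7 from 134442350 to 134459284, and no other annotated gene shares its exonic bases. It was measured at 17.3 FPKM in adherent HCT116 cells (1293 reads), 45.4 in HCT116 spheroids (2790 reads), 165 in adherent LOVO cells (10798 reads) and 3424 in LOVO spheroids (252149 reads). Both LOVO libraries lay above both HCT116 libraries, and in LOVO spheroids it was the gene with rank 5 by FPKM and took 1.32% of all reads. The fold was 2.62 (2.45 to 2.80) in HCT116 and 20.8 (20.4 to 21.2) in LOVO, or 1.34 and 4.37 on the log2(FPKM + 1) scale. Of all stretches of 50 bases in its transcripts 5.45% also occur in transcripts of other genes, and the 7 AKR1B1 pseudogenes in the table were at 0 reads in every library.

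The 3 genes SLC5A3, SLC6A12 and AKR1B1 exceeded a log2 difference of 1 in both lines, and NFAT5 and SLC6A6 exceeded it in neither. These counts can be read against the whole table. In HCT116, 2.19% of the genes compared lay above 1 and 3.33% below -1, and 0.201% lay above 2, where SLC5A3 was the only member. In LOVO, 8.57% lay above 1 and 7.85% below -1, 1.81% above 2 and 0.201% above 4, a level that all 3 of these members passed. Above 1 in both lines were 0.645% of genes, and above 2 in both 0.0347%, which is 5 genes with SLC5A3 among them. No member lay below -1 in either line. The median log2 difference of the members was 1.34 in HCT116 and 4.35 in LOVO, against -0.03 and -0.06 over all genes compared. SLC6A12 passed the filter only through its level in LOVO spheroids, so a high value there was a condition of counting it. Since the members were chosen by these differences, the counts show how far from the bulk of genes they stood and nothing more.

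**Figure D2:**
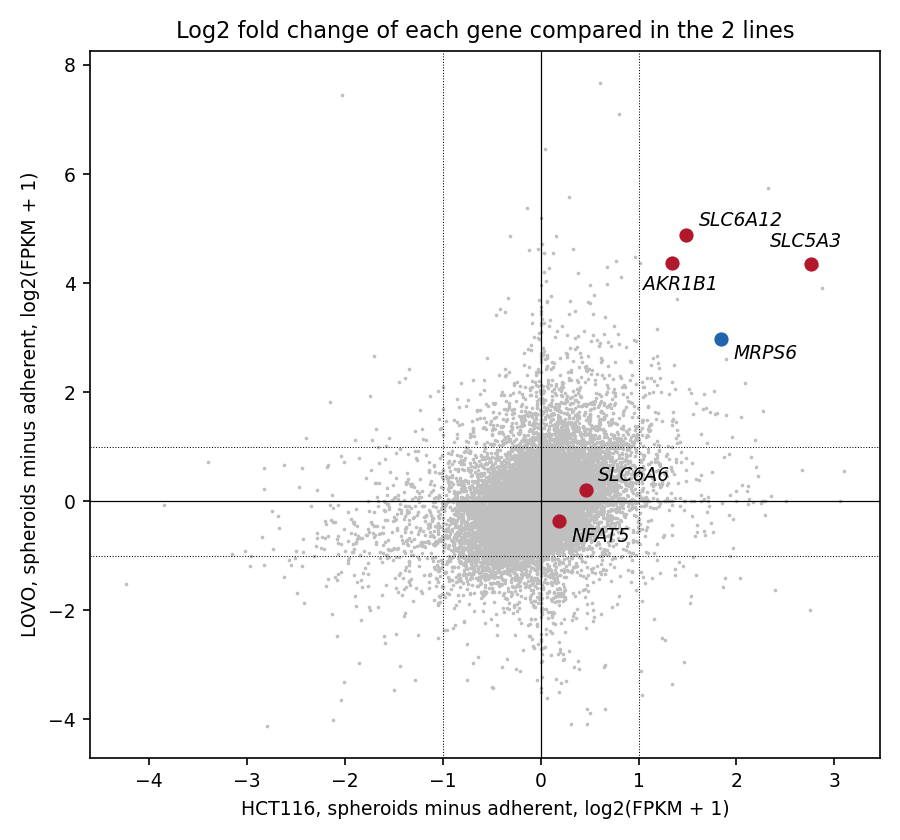
Differences in log2(FPKM + 1) between spheroids and adherent cells in HCT116 (horizontal) and LOVO (vertical), 1 point for each of the 14429 genes compared, with the members in red, MRPS6 in blue and dotted lines at -1 and 1. SLC5A3, SLC6A12 and AKR1B1 lie at 1.34 to 2.77 in HCT116 and above 4 in LOVO, and NFAT5 and SLC6A6 lie inside the cloud.

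The lines were then compared at the same growth form. Between the adherent libraries NFAT5, SLC5A3 and SLC6A6 were close, with LOVO minus HCT116 differences of -0.32, -0.27 and -0.06. In the FPKM as deposited, only that of SLC6A6 lay within counting error. AKR1B1 was already 9.49-fold (8.96 to 10.1) higher in adherent LOVO cells, a log2 difference of 3.17, and was the only member past 1 there, where 17.4% of genes lay above 1 and 16.4% below -1. SLC6A12 was 4.75-fold higher in adherent LOVO cells, but from 11 and 46 reads, with an interval of 2.43 to 10.2, and its log2(FPKM + 1) difference was 0.43. In spheroids the LOVO library was higher for SLC5A3 by 1.31, for SLC6A12 by 3.83 and for AKR1B1 by 6.21, and lower for NFAT5 by a difference of -0.87 and for SLC6A6 by one of -0.31. The share of all genes above 1 was 17.7%, and 15.0% lay below -1, so 3 of 5 members past 1 is set against a wide difference between the lines. AKR1B1 stood apart within it, since only 21 genes had a larger difference and its fold was 75.5 (72.7 to 78.4).

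The rest of the osmolyte system was read from 63 genes in lists of inositol, polyol, taurine, betaine and glycerophosphocholine handling, SLC6 relatives, other reported NFAT5 targets, the NFAT family with regulators of NFAT5, and cell volume control. Of these, 46 passed the filter, and their median log2 difference was -0.01 in HCT116 and 0.00 in LOVO. The members were chosen by their differences here and the lists with earlier results known, so a contrast between them is a description only. In HCT116 none of the 46 lay above 1, beside 2.19% of all genes, and 2 lay below -1, beside 3.33%. In LOVO 8 lay above 1, beside 8.57%, and 4 below -1, beside 7.85%. The 8 include CCL2, VEGFC and TNF, which passed the filter only through LOVO spheroids. The count above 1 in LOVO is therefore not read against its share. None of the 46 lay above 1 in both lines, where the share of all genes was 0.645%.

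In the inositol list, ISYNA1, which makes inositol phosphate from glucose phosphate, stood at 71.3 and 86.0 FPKM in HCT116 adherent cells and spheroids and at 1.07 and 5.37 in the LOVO pair, a LOVO log2 difference of 1.62. The other 3 inositol genes compared, SLC2A13, IMPA1 and IMPA2, were between -0.46 and 0.31 in HCT116 and between -0.66 and -0.22 in LOVO. In the polyol list, SORD, which oxidises the sorbitol that AKR1B1 makes, stood at 13.7 and 13.8 FPKM in HCT116 adherent cells and spheroids. In LOVO the same values were 9.93 and 3.99, a difference of -1.13 in the direction opposite to AKR1B1. AKR1B10, a close relative of AKR1B1, was at 0.703 and 0.683 in HCT116 and at 2.62 and 29.8 in LOVO, a difference of 3.09. The related AKR1B15, which did not pass the filter, was at 0 reads in both HCT116 libraries and at 4 and 253 in LOVO. These 2 genes are much alike in sequence, so the split of reads between them is uncertain.

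CSAD and ADO, which make hypotaurine, the precursor of taurine, had log2 differences of 0.56 and 0.31 in HCT116 and -0.08 and -0.36 in LOVO. None of the 6 genes compared in betaine and glycerophosphocholine handling passed 1 in either direction. Over all genes, 2.19% lay above 1 and 3.33% below -1 in HCT116, and 8.57% and 7.85% in LOVO. With 6 genes, a count of none shows nothing particular to them. Among the SLC6 relatives only SLC6A8, the creatine transporter, passed the filter, and its differences were -0.17 and -0.27. SLC6A13, another GABA transporter, had 5 reads in HCT116 adherent cells and 24 in spheroids, and 1 and 162 in the LOVO pair, at most 1.90 FPKM.

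Of 12 other genes reported as NFAT5 targets, 8 passed the filter, but CCL2, VEGFC and TNF only through LOVO spheroids, where they had to be high, so no count over this list is read. HSPA1A and HSPA1B, which encode the inducible heat shock protein HSP70, were at -1.39 and -1.35 in HCT116 and at 2.27 and 2.42 in LOVO. They are near-identical copies, so the reads of each are uncertain. The chemokine gene CCL2 went from 1.40 to 12.9 FPKM in the LOVO pair and VEGFC, a growth factor of lymphatic vessels, from 1.06 to 7.23. TNF was listed at 0 in adherent LOVO cells but at 6.85 in the spheroids of that line, and CCL2, VEGFC and TNF did not exceed 0.210 FPKM in either HCT116 library. S100A4, a calcium-binding protein, had the highest mean of the list, at 117 and 229 FPKM in the HCT116 pair and 602 and 362 in the LOVO pair, differences of 0.97 and -0.73. HSPA4L, a relative of HSP110 chaperones, was at -0.15 and -0.75, and SLC38A2, an amino acid transporter, at 0.08 and -0.30.

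None of the 9 NFAT family and regulator genes compared lay above 1 in either line. The share of all genes was 2.19% in HCT116 and 8.57% in LOVO, so none among 9 shows nothing particular to them. FYN, a kinase upstream of NFAT5, was at -0.32 in HCT116 and -1.97 in LOVO, and DHX9, an RNA helicase reported to bind NFAT5, at -0.09 and -1.08. Among 13 cell volume genes, SLC12A2, the sodium, potassium and chloride cotransporter NKCC1, was at 11.5 and 17.6 FPKM in HCT116 and at 1.79 and 5.89 in LOVO, with differences of 0.57 and 1.30. WNK1, a kinase upstream of it, was at -0.39 and -1.03. The kinase SGK1 was at -0.19 and -0.24, and the volume-regulated anion channel subunit LRRC8A at 0.22 and 0.14.

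The genes whose 4 values moved most like each member were found over the 14429 genes by the Euclidean distance between log2(FPKM + 1) values centred on their own mean, over 4 libraries. For NFAT5 they were ZC3H13, MOB1A and ADIRF-AS1, at distances of 0.0305 to 0.0488, and for SLC6A6 INO80D, BRWD1 and SOCS6, at 0.0421 to 0.0617. The nearest genes of the members with large differences lay farther away. Few genes differ that much, so larger distances follow from the size of the differences and show nothing particular to these members. For SLC5A3 the nearest were PRSS35, SERPINA1 and then MRPS6, at 1.14, 1.14 and 1.22, and PRSS35 went from 0.643 to 7.24 FPKM in HCT116 and was listed at 0 and then at 52.7 in LOVO. For AKR1B1 they were COL8A1, IL6 and PPIAP46, at 0.982 to 1.24, none above 0.273 FPKM in either HCT116 library. Their HCT116 differences were 0.04, 0.16 and 0.33, against 1.34 for AKR1B1. For SLC6A12 they were AC072022.2, ACSL4 and ACSS2, at 0.555 to 1.04, with HCT116 differences of 0.97, 0.38 and 0.12 against 1.49. These genes were thus nearest by their LOVO values more than by their HCT116 differences. IL6 and PPIAP46, like SLC6A12, passed the filter only through LOVO spheroids.

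The protein-coding genes next to each member on the chromosome were also read. AKR1B10 is the nearest gene beyond the 134459284 end of AKR1B1, with a gap of 68308 bases, whereas SLC35B4 on the other side had differences of 0.02 in HCT116 and 0.10 in LOVO. SLC6A13 is a neighbour of SLC6A12, 6051 bases away, and both had their most reads in LOVO spheroids. IQSEC3, on the other side of SLC6A12, did not exceed 0.0310 FPKM. NQO1, 2330 bases beyond NFAT5, encodes a quinone reductase and was at 163 and 58.9 FPKM in HCT116 and 162 and 50.5 in LOVO. Its differences were -1.46 and -1.66, beside 0.18 and -0.37 for NFAT5. CYB5B, on the other side, was at 47.7 and 84.1 FPKM in HCT116 and 36.6 and 38.0 in LOVO, differences of 0.81 and 0.05. The neighbours of SLC6A6, LSM3 and CCDC174, were at -0.76 and 0.06 in HCT116 and at -0.61 and -0.24 in LOVO. KCNE2, the next protein-coding gene after SLC5A3, did not exceed 0.709 FPKM.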

How the data were processed

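RNA-seq libraries, 1 for each combination of 2 lines and 2 growth forms, were prepared with a SMARTER mRNA kit per the labels. The values as deposited are FPKM, which the authors gave for 58735 genes in every library, with each gene's coordinates and length. The aligner, counter and treatment of strand are not given in the sources used here. The submitters' processing notes name the mouse builds GRCm38 and mm10, but all 58735 gene IDs of the table are in the human GENCODE 29 annotation of GRCh38, and the coordinates and lengths of the members equal its own.

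FPKM multiplied by gene length was a whole multiple of 1 step for 100% of values above 0, within 0.05 reads, which gave back the reads. The totals by which the FPKM were divided were 0.907 to 1.09 times the reads on genes, so they were not the sums of these reads. Whether this reflects a scaling or the way reads were counted was not tested. Differences were taken on log2(FPKM + 1) over genes whose mean FPKM reached 1, and intervals are exact binomial (Clopper-Pearson, 95%). There was no test, as each group had 1 library and the members were chosen by their values here. The steps were run on simulated reads with planted changes and counting error only. That simulation held no difference between the lines and no spread between cultures, so it says nothing about either.

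The members and lists were chosen with earlier results of these data known. Named were all members and MRPS6, list genes past a log2 difference of 1 in either line, 7 list genes whatever their values, and the 3 nearest patterns of each member. SLC6A13, AKR1B15, overlapping and neighbouring genes, LRRC8A, S100A4, CSAD, ADO, SLC2A13, IMPA1, IMPA2 and SLC6A8 were named after their values were seen. Promoters came from RefSeq (GRCh38.p14), where 2 of the 5 members, SLC5A3 and AKR1B1, were found. Python 3.11.15, pandas 2.3.3, numpy 2.4.6 and scipy 1.17.1 were used. Alternatives were other pseudocounts, filters, scalings and thresholds.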

Additional observations from a re-analysis of the deposited data

Results flagged for a closer look

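Among the members, MRPS6, the list genes that passed the filter and the chromosomal neighbours, 66 in all, 12 differed between spheroids and adherent cells in opposite directions in the 2 lines, with both counting intervals away from 0. With 1 library per group, the difference between the lines was not tested. The share of all genes compared that meets this rule was not counted, so 12 of 66 is not read as a trait of these genes. NFAT5 was at 0.18 in HCT116 and -0.37 in LOVO, so its log2 difference in LOVO minus that in HCT116 was -0.55. Of the genes higher in HCT116 spheroids and lower in LOVO spheroids, as NFAT5 was, the same quantity was -0.52 for SLC2A13, -0.67 for ADO, -0.95 for CHDH, -0.60 for ALDH7A1, -1.70 for S100A4, -0.38 for SLC38A2 and -1.96 for COL1A1. HSPA1A and HSPA1B, whose reads may be split between near-identical copies, went the other way, at 3.66 and 3.77. So did ABL1 at 0.53 and EPCAM at 0.48, the latter from 42 and 76 reads in LOVO.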

How the results depend on the processing

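The labels carry no replicate numbers and each group has 1 library, so no library could be left out. The cell line pairs each adherent library with a spheroid library. A paired fit over both lines, with line as a term, was not run, as the members were chosen by these differences. The 3 members above a log2 difference of 1 in each line stayed at 3 under the other pseudocounts (0.1 and 0.01), filters (none, and a mean FPKM of at least 5), scalings (FPKM rescaled to TPM, a trimmed mean of log ratios, and centring on the median) and with protein-coding genes only. With a threshold of 2, 1 member remained in HCT116 and 1 in both lines, while LOVO kept 3. With a pseudocount of 0.1 or of 0.01, the members past 1 between the adherent lines went from 1 to 2, the second being SLC6A12. With a threshold of 2 the other list genes past it went from 2 to 0 in HCT116, and in LOVO from 12 to 5. The 12 include CCL2, VEGFC and TNF, which passed the filter only through LOVO spheroids. Under the pseudocounts and scalings, every member and MRPS6 kept its direction in all 4 comparisons, and the widest range was that of SLC6A12, 1.49 to 4.22 in HCT116 and 4.89 to 6.44 in LOVO. Rescaling to TPM moved the median of all genes in LOVO from -0.06 to 0.10, and NFAT5 was then at -0.20 and SLC6A6 at 0.42 there, with SLC6A6 at -0.08 between the spheroids of the lines. The excess of SLC5A3 over MRPS6 ranged from 0.92 to 0.96 in HCT116 and, in LOVO, from 1.36 to 1.49, and the threshold does not enter it. With the reads of both genes summed over their joined lengths, the difference was 2.57 in HCT116 and 3.99 in LOVO. Depth limits SLC6A12 most, with 11 reads in adherent HCT116 cells.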
